A study of Homo sapiens with 24 samples.

Results

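The interaction of decitabine and GSK-126 in SNU398 was measured as 1 contrast per gene over 8 libraries, of the 24 libraries in the study. SNU398 is an established line from a human hepatocellular carcinoma. The contrast is the mean log2 level with both drugs, minus that with decitabine, minus that with GSK-126, plus that with vehicle. It is 0 where the drugs multiply each other's changes, positive where the level with both drugs lay above that product and negative where it lay below. The libraries were taken by their cell line and treatment labels: combination (decitabine at 100 nM and GSK-126 at 500 nM), decitabine alone at 100 nM, GSK-126 alone at 500 nM, and the vehicle, Dulbecco's phosphate-buffered saline (DPBS), 2 libraries each. Doses were given daily for 3 days and the cells were collected on day 14, so the libraries show levels long after dosing. All groups carry the wild-type genotype label, the labels name no agent that all 4 share, and the cells came from the American Type Culture Collection, so 1 established line stands for the tumour. HepG2 (day 14) and SNU475 (day 21) received the same 4 treatments, 2 libraries each, and their values are given only for comparison. Their libraries did enter the fit, however. The filter, the scaling and the spread behind the SNU398 standard errors and p-values were taken over all 24 libraries. The labels do not say whether replicates A and B came from separate cultures, so p-values measure the spread between libraries, which may be technical. The series title names a synergy of DNMT and EZH2 inhibitors in gene activation, and the contrast asks where the drugs together departed from their multiplied single effects.

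Decitabine is a cytosine analogue that is built into new DNA and traps DNA methyltransferases, so that methylation is lost as cells divide. Methylation of promoters keeps germline genes and many tumour suppressor genes silent in liver cancer. GSK-126 competes with S-adenosylmethionine in EZH2, the enzyme of Polycomb repressive complex 2 that places methyl groups on lysine 27 of histone H3 and thereby keeps developmental genes silent. Genes can pass from one form of silencing to the other, which is why the drugs are tried together. Total RNA also shows other programs that drugs can set off, among them the integrated stress response, in which the transcription factor ATF4 raises genes for amino acid synthesis and transport, and the arrest of the cell cycle.

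The 8 SNU398 libraries rest on 43.3 to 60.37 reads, in units of 1e6, and 27296 to 29896 genes were above 0 in a library. Levels are scaled RPKM (reads per kilobase of gene and per 1e6 reads, deposited by the authors and scaled per library here), and changes are log2 of scaled RPKM plus 0.5, so that genes near 0 show smaller changes than their ratios. Positions are on hg19 unless stated. The liver label of the cells was checked against markers. Mesenchymal markers were split (in DPBS, mean of 2 libraries, VIM 327, COL3A1 284, LUM 45.8 and DCN 6.52, but COL1A1, COL1A2, PDGFRB and THY1 between 0.0303 and 1.1), and defining hepatocyte genes were low (ALB 1.37, against 5470 in HepG2 DPBS), and 6 immune markers summed to at most 0.632. In SNU398 DPBS, oncofetal liver markers were split too, with GPC3 at 16.9 and EPCAM at 5.39 but AFP at 0.474 and DLK1 at 0.0355. In HepG2 DPBS they had 34.3, 33.7, 2540 and 115, in that order. The GSK-126 libraries stood apart. In them 60.9% and 57.19% of reads lay in genes, against 62.7% to 63.61% in the other 6, and mRNAs of the mitochondrial genome took 0.768% and 0.832% of reads in genes, against 1.95% and 1.97% with the combination, 1.87% and 1.95% with decitabine and 1.23% and 1.29% with DPBS. Hepatocyte transcripts, as a percentage of their HepG2 DPBS levels over 10 genes, had a median of 0.406% in decitabine replicate A (range 0.391% to 0.563%), 0.123% in combination replicate B, 0.0831% in GSK-126 replicate B and at most 0.047% in the others, where the 10 genes ranged from 0% to 0.148%, so hepatocyte genes are given with and without decitabine replicate A. The part of these differences in the results was not tested.

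The interaction was called in 8001 of 19377 genes tested (41.3%, limma, Benjamini-Hochberg adjusted p under 0.05): 3575 positive (18.4%) and 4426 negative (22.8%). The genes tested include some that are low in SNU398. With a stricter filter of 1 RPKM in 2 SNU398 libraries, 3409 of 12830 genes were positive and 3941 negative, larger shares in both directions. Shares over all genes set beside lists below are those of the 19377, so lists of well-expressed genes lie nearer to the stricter shares. Most departures were small. At least 2-fold, 189 genes were positive (0.975%) and 384 negative (1.98%), and the median over all genes was -0.01. Positive genes made up 44.7% of the calls, 64.7% without scaling of the libraries and 51.8% with quantile normalization. Among 2-fold calls they made up 33%, 53.1% without scaling and 41.1% with quantile normalization. The balance of directions thus rested on the scaling, which moved the median of all genes by less than 0.1. Without it, the median of mitosis genes went from 0.98 to 1.13 and that of ribosomal protein genes from 0.21 to 0.37. The scale factors were 1.054 and 0.998 for the GSK-126 libraries, against 1.128 to 1.158 for the other 6. Protein-coding genes gave 125 of the 2-fold positive and 278 of the 2-fold negative calls among 13741 tested, long non-coding genes 12 and 57 among 2750, pseudogenes 20 and 24 among 1820, and small RNAs 32 and 25 among 1059.

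The large departures belonged mostly to genes that moved with GSK-126 alone and lay near their decitabine level with both drugs. Of the 384 genes with a 2-fold negative interaction, the GSK-126 mean was the highest of the 4 groups in 363, and both GSK-126 libraries lay above the other 6 in 346; the combination mean was the highest in 5. Of the 189 with a 2-fold positive interaction, the GSK-126 mean was the lowest in 173, both of its libraries lay below the other 6 in 162, and the combination mean was the highest in 33. For comparison, over all 19377 genes both GSK-126 libraries lay above the other 6 in 4494 and below in 3883. A group that departs from the other 3 must enter the contrast with its sign, so these counts describe the calls and do not test them. Leaving out GSK-126 replicate A gave 204 positive and 415 negative 2-fold calls, and leaving out replicate B gave 193 and 385, so neither library alone made them.

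**Figure D1:**
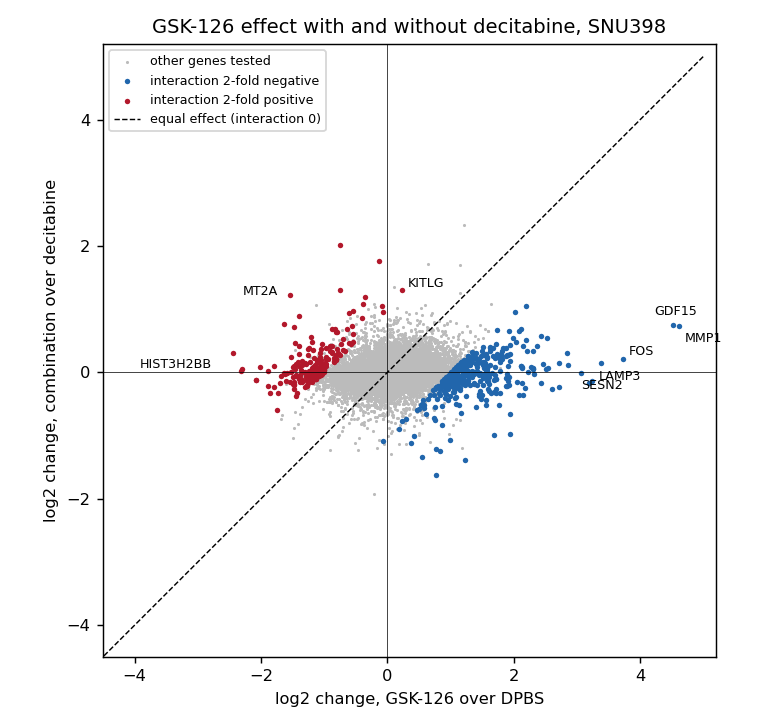
Each point is 1 of 19377 genes in SNU398; the x axis is the log2 change of GSK-126 over DPBS and the y axis that of the combination over decitabine, 2 changes that share no library. The dashed diagonal marks an interaction of 0; the 384 genes with a 2-fold negative interaction (blue) and the 189 with a 2-fold positive one (red) lie mostly along the horizontal axis, that is, they changed with GSK-126 alone and little when GSK-126 was added to decitabine.

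The effect of GSK-126 without and with decitabine can be set side by side with no library in common, as GSK-126 over DPBS and combination over decitabine. With GSK-126 alone, 410 genes rose at least 2-fold (2.12%), with a median of 1.26 on the log2 scale. With decitabine present, the same 410 genes had a median of 0.09; 147 of them (35.9%, against 12.5% of all genes) were called higher, 44 lower and 219 neither, and 3 rose 2-fold. GSK-126 alone lowered 201 genes at least 2-fold (1.04%), with a median of -1.2. With decitabine present, their median was -0.05; 45 (22.4%, against 8.07% of all genes) were called lower and 0 of the 201 were called 2-fold lower (1 passed the fold at any p). Both sets were chosen by the effect without decitabine, so their medians for that effect are a description. Across all 19377 genes, which are not independent replicates, the SD of the GSK-126 effect was 0.42 without decitabine and 0.19 with it, and Pearson's r between these effects was 0.19. The decitabine effect was set out in the same way, without and with GSK-126, with an SD of 0.3 and 0.4 and an r of 0.29. Of 210 genes that decitabine alone raised 2-fold (1.08% of all; median 1.35), 174 (82.9%, against 26.6% of all genes) were called higher by decitabine in the presence of GSK-126, with a median of 1.15 and 125 still 2-fold (1.46% of all genes). The 21 genes that decitabine alone lowered 2-fold (0.108%) had a median of -1.22 alone and 0.3 with GSK-126. Of these 21, 1 was called lower with GSK-126 present and 5 higher (23.5% and 26.6% of all genes).

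The lowest interactions belonged to secreted and stress-response genes. MMP1 (chr11:102660651-102668891), a collagenase, had 6.03 and 5.67 scaled RPKM with the combination, 3.35 and 3.31 with decitabine, 29.2 and 29.8 with GSK-126 and 0.729 and 0.706 with DPBS. Every treatment lay above DPBS, the GSK-126 libraries were highest and no groups overlapped. The multiplied single effects, on the scale with 0.5 added, would have given 93.7, and the interaction was -3.89 (SE 0.08, adjusted p = 5.6e-14, limma). GDF15 (chr19:18485541-18499986), a stress-induced cytokine of the TGF-beta family, had 5.17 and 6.04 with the combination, 3.26 and 2.96 with decitabine, 50.4 and 48 with GSK-126 and 1.73 and 1.61 with DPBS. It followed the same order as MMP1, with an interaction of -3.76 (SE 0.13, adjusted p = 1.3e-11). LAMP3, a lysosomal membrane protein, had 1.34 and 1.46 with the combination, 1.72 and 1.45 with decitabine, 25 and 24.9 with GSK-126 and 2.34 and 2.06 with DPBS. Here the combination and decitabine libraries overlapped, all 4 lay below DPBS, and only the GSK-126 pair was high (interaction -3.37, SE 0.09, adjusted p = 1.9e-12). TAC1, which encodes the neuropeptide substance P, was likewise high in the GSK-126 pair only, at 6.11 and 6.29, against 0.41 and 0.37 with the combination, 0.328 and 0.274 with decitabine and 0.152 and 0.137 with DPBS; its interaction was -3.23 here and ranged from -5.02 to -2.56 over the alternatives, its other 3 groups lying under 1 scaled RPKM. TLCD2 behaved alike, with an interaction of -2.96. For C15orf65 the value of -3.36 is uncertain, because it overlaps other genes and the strand setting of the read assignment is not given in the sources used here.

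**Figure D2:**
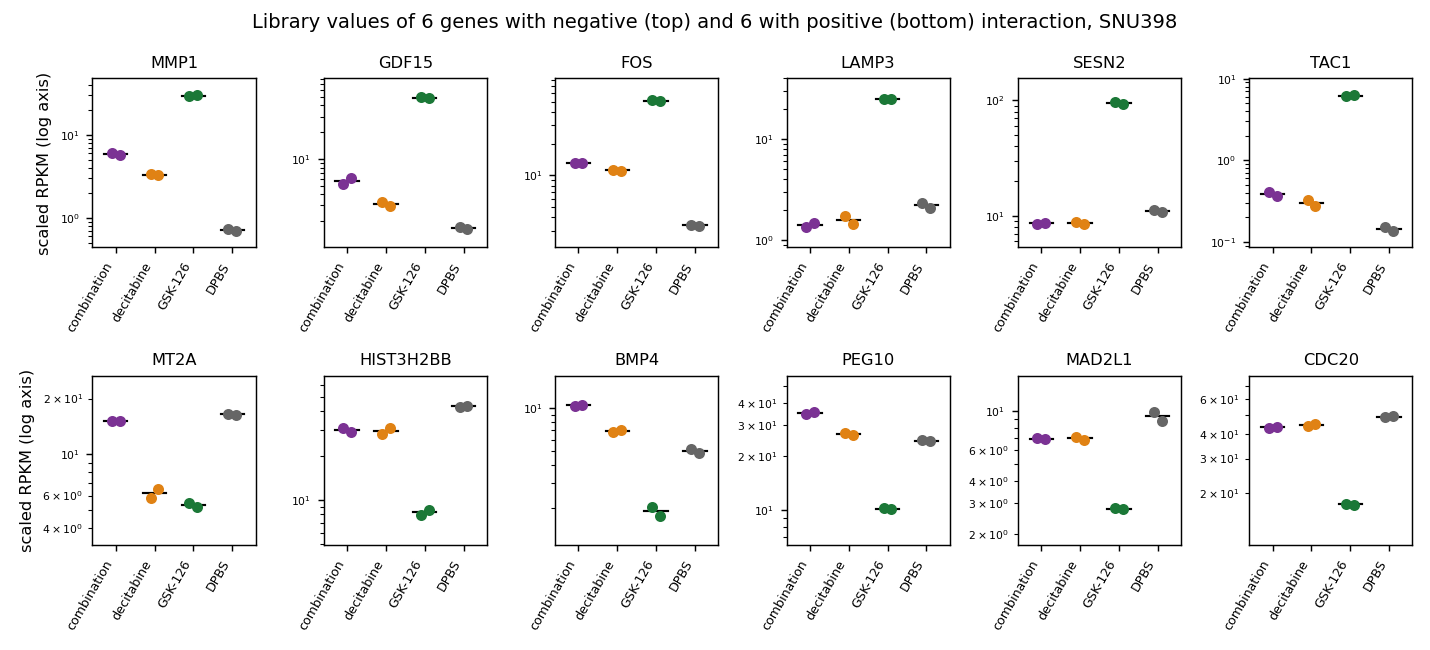
Each panel shows the 8 SNU398 libraries for 1 gene as scaled RPKM on a log axis, by treatment, with a bar at the group mean of 2 libraries. In the top row the GSK-126 pair is the highest in each of 6 genes, up to 96.9 for SESN2; in the bottom row it is the lowest in each of 6, with MT2A at 5.46 and 5.18 close to decitabine at 5.85 and 6.5.

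Targets of ATF4 had the lowest median of the lists, except that hepatocyte genes lay lower with voom (-1.71, against -1.3 for ATF4 targets) and with the stricter filter (-1.33, against -1.25). ATF4 is translated when the kinases of the integrated stress response slow protein synthesis, and it raises genes for amino acid synthesis, transport and tRNA charging. Of 42 members measured (44 listed), 42 had a negative interaction, beside 22.8% of all genes, and 25 of them at least 2-fold, beside 1.98%. The median was -1.25, with a range of -3.76 to -0.32, beside a median of -0.01 over all genes. GSK-126 alone raised 42 of 42 (30% of all genes were called higher), with a median of 1.18. Decitabine alone lowered 28 and raised 6 (15.4% and 23.4% of all genes), with a median of -0.15, and the combination lowered 33 and raised 4 (18.4% and 28.9%), with a median of -0.32. Against decitabine, the combination was called lower for 27 of the 42 and higher for 5 (8.07% and 12.5% of all genes). SESN2, a leucine sensor that restrains mTORC1, had 8.49 and 8.73 scaled RPKM with the combination, 8.82 and 8.51 with decitabine, 96.9 and 93.9 with GSK-126 and 11.3 and 10.7 with DPBS. Only the GSK-126 pair stood apart upward, and the interaction was -3.07 (SE 0.06, adjusted p = 4.6e-14). NUPR1, a stress-induced chromatin protein, had 0.817 and 1.06 with the combination, 0.797 and 0.856 with decitabine, 3.65 and 3.83 with GSK-126 and 0.144 and 0.0276 with DPBS, an interaction of -2.75. DDIT4, an inhibitor of mTORC1, had 8.03 and 8.19 with the combination, 10.2 and 10.8 with decitabine, 49.7 and 51 with GSK-126 and 11.4 and 11.7 with DPBS, so that the combination lay below decitabine as well (interaction -2.44, adjusted p = 6e-13). ASNS, the asparagine synthetase, was chosen after its values were seen, for its well-known ATF4 site: it had 32.1 and 32.4 with the combination, 39.9 and 41.5 with decitabine, 157 and 160.4 with GSK-126 and 47.2 and 49 with DPBS, in groups that did not overlap. ATF4 itself rose less, to 154 and 154 with GSK-126, against 109.9 and 111 with DPBS, and had 80.4 and 82.9 with the combination and 88.7 and 88.3 with decitabine (interaction -0.59, adjusted p = 4.1e-07).

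Part of the list carries a known ATF4 site in the promoter. The ATF4 composite element, searched as TGATGNAA on both strands of RefSeq promoters (GRCh38.p14, 250 bases before to 50 after the start), lay in 11 of the 36 ATF4 list members matched (30.6%), against 1.79% of 10928 tested protein-coding genes matched and 3.67% of 27305 promoters in the table. The motif was in 5.26% of the 209 matched genes with a 2-fold negative interaction and in 0 of 80 with a 2-fold positive one. Members of the list were named for being ATF4 targets, so the share describes the list and says nothing about binding in these cells. The windows below lie at chr7:97872457-97872488 (minus strand, ASNS), chr15:40953250-40953281 (minus strand, CHAC1), chr1:212565204-212565235 (plus strand, ATF3) and chr16:70289674-70289705 (plus strand, AARS), all upstream of the start. Each is shown on the strand that reads the motif, which is in capitals, and they are printed as 4 examples of the members that carry the element; 25 of the 36 matched members do not have these letters in this window.
ASNS: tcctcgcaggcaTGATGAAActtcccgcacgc
CHAC1: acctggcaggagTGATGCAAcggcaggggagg
ATF3: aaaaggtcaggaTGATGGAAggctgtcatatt
AARS: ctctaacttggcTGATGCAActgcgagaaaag
CHAC1, which degrades glutathione, had an interaction of -2, ATF3, a stress-induced repressor, -1.44, and AARS, the alanine tRNA ligase, -0.87, beside -2.04 for ASNS.

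Early-response genes, whose products answer growth and stress signals within minutes, formed the next list. Of 28 measured, 19 had a negative (67.9%) and 1 a positive interaction (3.57%), against 22.8% and 18.4% of all genes. The median was -0.53, and GSK-126 alone raised 25 (30% of all genes were called higher). FOS had 13.1 and 13.1 scaled RPKM with the combination, 11.3 and 11.1 with decitabine, 51.7 and 50.2 with GSK-126 and 3.41 and 3.31 with DPBS. Like GDF15 and NUPR1, and unlike most ATF4 targets, it was also raised by decitabine and by the combination, and the groups did not overlap (interaction -3.52, SE 0.07, adjusted p = 4.7e-14). EGR1 had 80.9 and 85.4 with the combination, 78.6 and 78.8 with decitabine, 223 and 223 with GSK-126 and 45.1 and 43.8 with DPBS, an interaction of -2.24 (adjusted p = 2.2e-14). FOSB and JUN, partners in the AP-1 factor, had interactions of -2.32 and -1.96; FOSB overlaps the higher gene ERCC1 (mean 15.3 RPKM) in the annotation and is uncertain without the strand setting. In this list the combination was called higher than decitabine for 16 members (12.5% of all genes). The step was small beside that of GSK-126 alone for FOS, which gained 0.22 on the log2 scale with GSK-126 on top of decitabine and 3.74 with GSK-126 over DPBS.

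Lysosome and autophagy genes carried negative interactions in 36 of 38 measured members (94.7%, against 22.8% of all genes). Of the 38 measured (42 listed), 6 were at least 2-fold negative (1.98% of all genes), and the median was -0.52. GSK-126 alone raised 35 (30% of all genes). SQSTM1, a receptor that delivers cargo to autophagosomes, had 23.2 and 24.7 with the combination, 19.5 and 19.2 with decitabine, 40.6 and 38.6 with GSK-126 and 11.2 and 10.8 with DPBS. All treated libraries lay above DPBS, GSK-126 highest (interaction -1.51, adjusted p = 1.4e-11). PSAP, the precursor of the saposins of sphingolipid breakdown, had 184 and 182 with the combination, 171 and 171 with decitabine, 332 and 336 with GSK-126 and 111 and 111 with DPBS (interaction -1.49). MAP1LC3B, which coats the autophagosome membrane, had -1.5. Targets of the oxidative-stress factor NRF2 were mixed, with 11 negative (42.3%) and 5 positive (19.2%) of 26, and HMOX1, which degrades heme, was the lowest: 53.9 and 54.1 with the combination, 43.3 and 43.8 with decitabine, 154 and 150.5 with GSK-126 and 20.8 and 20.6 with DPBS, an interaction of -2.54. Chaperones of the endoplasmic reticulum split, 9 negative (47.4%) and 8 positive (42.1%) of 19, beside 22.8% and 18.4% over all genes. HSPA5, the main chaperone of that compartment, had 75 and 73.7 with the combination, 76 and 75 with decitabine, 193 and 200.0 with GSK-126 and 66.7 and 68.2 with DPBS, so that 6 libraries lay close together and the GSK-126 pair high (interaction -1.56, adjusted p = 3.9e-13). Of 30 p53 targets, 13 were negative (43.3%) and 4 positive (13.3%), led by the death receptor TNFRSF10B (-2.21) and the growth-arrest gene GADD45A (-1.55). The cell-cycle inhibitor CDKN2B had 7.37 and 7.3 with the combination, 5.86 and 5.5 with decitabine, 18.1 and 17.6 with GSK-126 and 3.62 and 3.33 with DPBS (interaction -1.86), and CDKN1A, which encodes p21, had -0.94.

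**Figure D3:**
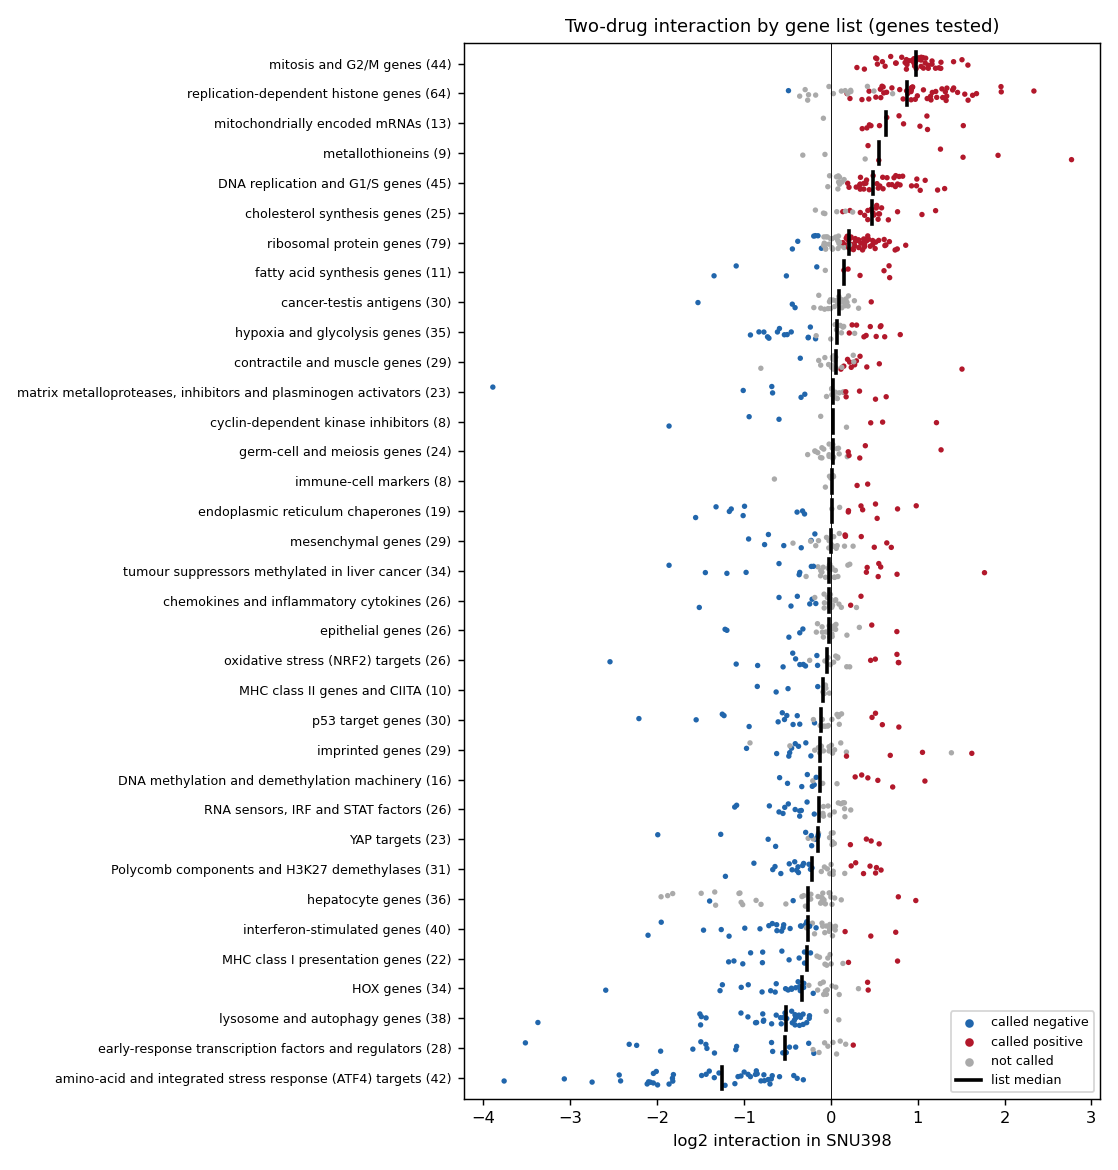
Each point is the log2 interaction in SNU398 of 1 list member (members measured in parentheses, lists of at least 8), blue where called negative, red where called positive and grey where not called, with a bar at the list median. The medians run from -1.25 for ATF4 targets to 0.98 for mitosis genes; most lists straddle 0.

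HOX genes are the body-axis factors that Polycomb complexes silence. Of 34 measured, 20 were negative (58.8%) and 2 positive, against 22.8% and 18.4% of all genes. Their median was -0.33, or -0.19 without scaling. HOXB9 had 5.64 and 5.99 with the combination, 6.38 and 6.72 with decitabine, 24.9 and 24.6 with GSK-126 and 4.14 and 4.23 with DPBS: all treatments lay above DPBS, and adding GSK-126 to decitabine changed the level by -0.16 (interaction -2.59, adjusted p = 1.2e-12). HOXA5 and HOXA3, which overlap each other in the annotation and can share reads, had -1.28 and -1.25. HOXB9 overlaps HOXB7, whose interaction was -0.49. Over 31 Polycomb and H3K27 demethylase genes, 16 were negative (51.6%) and 7 positive (22.6%), and KDM6B, a demethylase of H3K27, was the lowest at -1.21.

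Interferon-stimulated genes, the antiviral program that RNA from silenced repeats can set off, carried more negative than positive interactions. Of 40 measured, 21 had a negative (52.5%) and 3 a positive interaction (7.5%), against 22.8% and 18.4% of all genes. The median was -0.26, from -0.78 with voom to -0.16 over the alternatives. Decitabine alone raised 27 and GSK-126 alone 21, beside 23.4% and 30% of all genes. IFI6, an interferon-induced mitochondrial protein, had 31.3 and 33.3 scaled RPKM with the combination, 46.6 and 48.2 with decitabine, 33.9 and 33.7 with GSK-126 and 12.2 and 12.6 with DPBS. Its combination level was the lowest of the 3 treatments, with a log2 change of -0.55 relative to decitabine (adjusted p = 5.3e-06; interaction -1.95, adjusted p = 3.4e-11). IFIT1, which binds foreign RNA ends, had 2.87 and 2.85 with the combination, 5.13 and 4.98 with decitabine, 2.54 and 2.71 with GSK-126 and 1.39 and 1.35 with DPBS, the same order of decitabine and combination (interaction -1.47); it overlaps LIPA (mean 20.1 RPKM, interaction 0.1), so that this value is uncertain in the same way. IFI35 differed from both in that GSK-126 was highest: 5.4 and 5.77 with the combination, 7.12 and 7.15 with decitabine, 17.6 and 17.2 with GSK-126 and 4.43 and 5.04 with DPBS (interaction -2.11). Among the 40, the combination was called lower than decitabine for 9 and higher for 1 (8.07% and 12.5% of all genes). RNA sensors and their IRF and STAT factors had 13 negative and 0 positive of 26 (limma; median -0.14; 2 positive at an unadjusted p under 0.05, 2 with voom, and 3 both without scaling and with quantile normalization), with STAT3 at -1.11. MHC class I genes, which present peptides to T cells, had 12 negative (54.5%) and 2 positive of 22. HLA-B had 31.5 and 31.5 with the combination, 30.5 and 29.5 with decitabine, 42.8 and 41.8 with GSK-126 and 19.7 and 19.7 with DPBS (interaction -1.01), and HLA-C had an interaction of -1.12; these genes resemble each other closely and may share reads. MHC class II genes gave 4 negative of 10 (40%). Chemokines and cytokines gave 7 negative and 2 positive of 26 (26.9%, near the 22.8% of all genes, and 7.69%), with LIF lowest at -1.52. The 6 guanylate-binding genes measured gave 0 calls in limma (0 at an unadjusted p under 0.05 and 0 with voom), with values between -0.02 and 0.05. However, 0 of these 6 reached 1 RPKM in 2 SNU398 libraries, and their median was 0.52 with voom. At such levels the 0.5 added draws changes towards 0, so these values cannot show an absence of interaction.

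The 189 genes with a 2-fold positive interaction were 0.975% of all genes. They held 23 of 64 replication-dependent histone genes measured, 20 of 44 mitosis genes and 4 of 45 DNA replication genes. All 44 mitosis and G2/M genes measured had a positive interaction (18.4% of all genes), 20 of them at least 2-fold (0.975% of all genes). Their median was 0.98, with a range of 0.3 to 1.58. GSK-126 alone lowered 44 of 44 (22.4% of all genes), with a median of -0.99. Decitabine alone lowered 40 (15.4% of all genes), with a median of -0.25, and the combination 35 (18.4%), with a median of -0.28. Between combination and decitabine, 4 were called higher and 4 lower (12.5% and 8.07% of all genes), with a median of 0. MAD2L1, a spindle checkpoint protein, had 7.04 and 6.93 scaled RPKM with the combination, 7.13 and 6.89 with decitabine, 2.79 and 2.76 with GSK-126 and 9.9 and 8.76 with DPBS. The combination and decitabine libraries overlapped, below DPBS and far above GSK-126 (interaction 1.58, SE 0.09, adjusted p = 3.2e-09). CDC20, an activator of the anaphase-promoting complex, had 43 and 43.5 with the combination, 43.8 and 44.9 with decitabine, 17.6 and 17.5 with GSK-126 and 48.6 and 49 with DPBS (interaction 1.41), and CCNA2, a cyclin of S phase and G2, had 1.51. The cell cycle homology region, searched as TTTGAA on both strands, lay in 65.8% of 38 matched mitosis promoters and in 46.2% of the 80 matched genes with a 2-fold positive interaction, against 9.95% of tested protein-coding genes. The CCAAT box was in 71.2% of those 80, against 36.3%. Only 80 of the 125 protein-coding genes with a 2-fold positive interaction were matched. The mitosis list was named for cell-cycle genes and gave 20 of the 2-fold positive genes. These shares thus describe the sets and say nothing about binding in these cells. The windows below lie upstream of the start on the plus strand at chr1:43358904-43358933 (CDC20), chr16:23678848-23678877 (PLK1), chr10:60778158-60778187 (CDK1) and chr15:40161034-40161063 (BUB1B) of GRCh38.p14, with the motif in capitals, and are examples of the mitosis promoters that hold it.
CDC20: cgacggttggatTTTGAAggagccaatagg
PLK1: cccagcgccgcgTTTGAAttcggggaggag
CDK1: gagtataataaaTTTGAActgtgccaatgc
BUB1B: gggaccgttaaaTTTGAAacttggcggcta
The interactions of these genes were 1.41 for CDC20, 1.12 for PLK1, a kinase of mitotic entry, 1.06 for CDK1, the mitotic cyclin-dependent kinase, and 1.24 for BUB1B, a checkpoint kinase.

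Over all genes, 18.4% were positive and 22.8% negative. DNA replication and G1/S genes were positive in 35 of 45 (77.8%), with a median of 0.49. They had no negative call in limma, at an unadjusted p under 0.05 or with voom. RRM2, the regulated subunit of ribonucleotide reductase, had 42.5 and 43.8 with the combination, 36.5 and 35.8 with decitabine, 21.1 and 21.1 with GSK-126 and 45.3 and 43.8 with DPBS. The combination lay at the level of DPBS, above decitabine by 0.25 on the log2 scale (adjusted p = 1.2e-05; interaction 1.31, adjusted p = 1.9e-12). RRM1, the large subunit, had 1.23. Replication-dependent histone genes, which package new DNA in S phase, were positive in 48 of 64 measured (75%) and negative in 1 (1.56%). Their median was 0.88. HIST3H2BB had 30.7 and 28.8 with the combination, 27.9 and 30.9 with decitabine, 7.91 and 8.59 with GSK-126 and 43 and 43.4 with DPBS, so that combination and decitabine overlapped (interaction 2.34, SE 0.18, adjusted p = 9.5e-08). HIST1H2AL (1.96), HIST1H2BM (1.96), HIST1H2BB (1.68), HIST1H4K (1.63) and HIST1H2AJ (1.58) followed. Histone genes are near-identical copies whose reads the assignment could split or drop, so single members are uncertain. The octamer ATTTGCAT, found in 1.36% of tested protein-coding promoters, lay in 37.9% of the 29 histone promoters matched. Cholesterol synthesis was positive in 19 of 25 (76%, median 0.47), with the sterol methyl oxidase MSMO1 at 1.21. Ribosomal protein genes were positive in 48 of 79 (60.8%) and negative in 6 (7.59%), with a median of 0.21, or 0.37 without scaling. Mitochondrially encoded mRNAs were positive in 12 of 13 (92.3%, median 0.64). The last list is the same quantity as the mitochondrial share that set the GSK-126 libraries apart: MT-ND3, a subunit of respiratory complex I, had 1045 and 1131 with the combination, 878 and 920.4 with decitabine, 376 and 433 with GSK-126 and 919 and 1006 with DPBS.

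Metallothioneins, small proteins that bind zinc and copper, departed in another way, because both single drugs lowered their leading member. MT2A (chr16:56642111-56643409) had 15.1 and 15.2 scaled RPKM with the combination, 5.85 and 6.5 with decitabine, 5.46 and 5.18 with GSK-126 and 16.5 and 16.3 with DPBS. Decitabine and GSK-126 libraries lay far below DPBS, whereas the combination lay just below it, 1.23 above decitabine (adjusted p = 1.8e-06). The product of the single changes would have been 1.8, and the interaction of 2.77 was the highest of the named genes (SE 0.14, adjusted p = 1.1e-09; 2.64 to 2.93 over the alternatives). MT1X had 2.19 and 2.42 with the combination, 0.995 and 0.849 with decitabine, 0.824 and 0.653 with GSK-126 and 1.39 and 1.21 with DPBS, here with the combination above DPBS too (interaction 1.52). MT1F, with 0.852 and 0.996 with the combination, 0.597 and 0.471 with decitabine, 0.278 and 0.265 with GSK-126 and 1.66 and 1.59 with DPBS, had 1.93. SLC30A1, a zinc exporter that like the metallothioneins is a target of the zinc-sensing factor MTF1, was high in the combination pair at 4.41 and 4.56, against 2.35 and 2.12 with decitabine, 2.55 and 2.59 with GSK-126 and 3.82 and 3.27 with DPBS (interaction 1.26). Of 9 list members measured (14 listed, SLC30A1 among them), 6 were positive and 0 negative in limma (0 at an unadjusted p under 0.05 and 0 with voom); with combination replicate B left out, 1 was negative. Over all genes, 18.4% were positive and 22.8% negative. The list median was 0.55, from 0.32 with a pseudocount of 1 to 2.15 with voom. The genes of this family resemble each other closely.

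A small number of genes were highest with both drugs. Among the protein-coding genes with a 2-fold positive interaction, 14 had both combination libraries above the other 6: BMP4, PEG10, MT-ND3, MT1X, HIST1H4L, SLC30A1, ESX1, CCNF, DNMT3B, KITLG, PHLDA2, MT-ND2, RASD1 and BMP6. This set was chosen after its values were seen and is described without a test. BMP4, a secreted growth factor of development, had 10.5 and 10.5 with the combination, 6.82 and 7.01 with decitabine, 2.04 and 1.76 with GSK-126 and 5.17 and 4.86 with DPBS, beside 2.73 from multiplied and 3.8 from summed single changes. PEG10, an imprinted gene derived from a retrotransposon, had 34.8 and 35.4 with the combination, 27.2 and 26.3 with decitabine, 10.2 and 10.1 with GSK-126 and 24.9 and 24.3 with DPBS. In both genes GSK-126 alone gave the lowest pair and decitabine alone lay above DPBS. In KITLG, the ligand of the KIT receptor, and RASD1, a Ras-like protein, unlike the other 12, the GSK-126 libraries did not both lie below DPBS. KITLG had 4.06 and 3.97 with the combination, 1.39 and 1.27 with decitabine, 1.06 and 0.999 with GSK-126 and 0.815 and 0.788 with DPBS, against 1.65 expected from multiplied and 1.56 from summed changes (interaction 1.07). RASD1 had 3.29 and 3.71 with the combination, 1.63 and 1.48 with decitabine, 0.825 and 0.826 with GSK-126 and 0.978 and 0.795 with DPBS. ESX1, an X-linked homeobox gene of placenta and testis, had 4.09 and 3.76 with the combination, 2.86 and 3.1 with decitabine, 0.664 and 0.811 with GSK-126 and 1.59 and 2.09 with DPBS. Over all genes, 14 rose and 8 fell 2-fold with the combination over decitabine (0.0723% and 0.0413%). The protein-coding ones include PLK2, a kinase induced by stress, with 2.67 and 2.86 with the combination, 1.06 and 1.04 with decitabine, 0.692 and 0.505 with GSK-126 and 0.208 and 0.237 with DPBS. Its interaction was 0.47 on the scale with 0.5 added. Its DPBS and GSK-126 levels lay below or near that 0.5. The value thus depends on the addition and does not show a rise beyond multiplied changes. DACT1, a regulator of Wnt signalling, rose to 10.7 and 10.4 with the combination, against 4.66 and 4.8 with decitabine, 5.52 and 5.12 with GSK-126 and 1.4 and 1.32 with DPBS, less than multiplied changes would give (interaction -0.56); these 2 genes were also chosen after their values were seen.

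**Figure D4:**
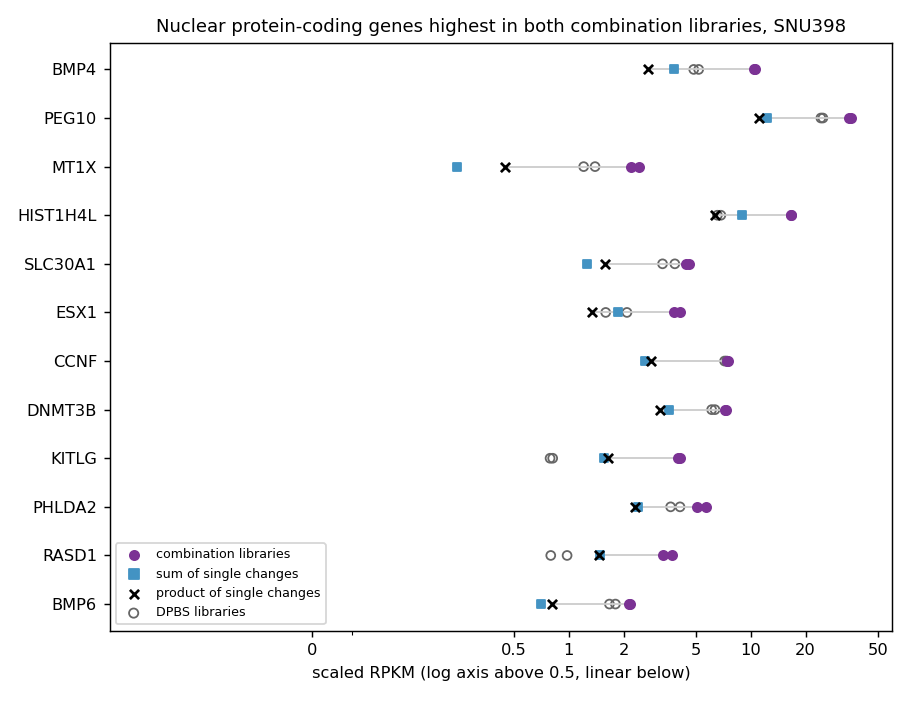
Rows are the 12 nuclear protein-coding genes with a 2-fold positive interaction whose combination libraries both lie above the other 6; the x axis is scaled RPKM (log above 0.5, linear below). Filled circles are the combination libraries, squares and crosses the levels that summed or multiplied single changes would give, and open circles the DPBS libraries; BMP4 has 10.5 in each combination library against 2.73 from the product.

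Few cancer-testis antigens, germline genes that DNA methylation silences, had a called interaction. Of 54 cancer-testis antigens listed, 30 were measured. Decitabine alone raised 22, the combination 23 and GSK-126 alone 3, beside 23.4%, 28.9% and 30% of all genes (medians 0.97, 0.99 and 0.02). The interaction was positive in 1 and negative in 3, that is 3.33% and 10% against 18.4% and 22.8% of all genes. Its median was 0.09, but -0.31 with voom and -0.02 with the stricter filter, which 15 of the 30 passed. Members near 0 can hardly show a departure from multiplied changes once 0.5 is added. The part of low levels in the low share of calls was not tested. The positive one was GAGE1, at 0.47. The lowest, CT45A5, ran otherwise than the list, with 5.81 and 5.23 with the combination, 5.25 and 5.57 with decitabine, 14.9 and 16.4 with GSK-126 and 5.13 and 4.85 with DPBS (interaction -1.53); members of these families are close copies. MAGEA1, chosen as an example after its values were seen, had 1.66 and 1.6 with the combination, 1.55 and 1.51 with decitabine, 0.0218 and 0 with GSK-126 and 0.00867 and 0.00864 with DPBS. Both decitabine-treated pairs were far above the other 4 libraries. The combination differed from decitabine by 0.07 on the log2 scale (adjusted p = 0.6, limma), and the interaction was 0.06 (SE 0.1, adjusted p = 0.71). Its DPBS and GSK-126 levels lay far below the 0.5 added. The interaction of MAGEA1 is thus close to the change from decitabine to the combination and does not test the product. Of 24 germ-cell and meiosis genes, 5 were positive and 0 negative in limma (0 at an unadjusted p under 0.05, 1 with voom), led by the testis tubulin TUBA3C at 1.27, which GSK-126 alone lowered. Tumour suppressors methylated in liver cancer gave 7 positive (20.6%) and 9 negative (26.5%) of 34, near the shares over all genes, with medians of 0.42 for the combination, 0.21 for decitabine and 0.18 for GSK-126, and with SFRP1, a Wnt antagonist, at -1.45. The remaining lists are given beside 18.4% positive and 22.8% negative over all genes, from which several differ little. Imprinted genes gave 4 positive and 9 negative of 29, epithelial genes 2 and 5 of 26, mesenchymal genes 6 and 7 of 29, matrix metalloproteases and their inhibitors 6 and 6 of 23, targets of YAP 4 and 10 of 23, contractile genes 11 and 1 of 29, fatty acid synthesis 6 and 4 of 11, and hypoxia and glycolysis genes 11 and 14 of 35. Hepatocyte genes gave 2 and 2 of 36, with a median of -0.26 that ran from -1.71 with voom and -1.33 with the stricter filter to 0.05 without decitabine replicate A.

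Among the enzymes the drugs act on, the interaction of EZH2 was -0.33 (SE 0.05, adjusted p = 6.8e-05), with 13 and 12.8 with the combination, 13 and 12.9 with decitabine, 19 and 18.8 with GSK-126 and 14.7 and 15.3 with DPBS. EZH2 mRNA was thus highest with its inhibitor alone and lowest with decitabine and the combination, whose libraries overlapped. DNMT1, the maintenance methyltransferase, had 15.2 and 14.9 with the combination, 15 and 15.4 with decitabine, 11.1 and 11 with GSK-126 and 16.5 and 16.4 with DPBS (interaction 0.54, adjusted p = 3.5e-08). DNMT3B, which sets new methylation, had 7.26 and 7.21 with the combination, 6.96 and 7.09 with decitabine, 2.77 and 2.75 with GSK-126 and 6.35 and 6.09 with DPBS (interaction 1.08, adjusted p = 3.3e-09). UHRF1, which guides DNMT1 to new DNA, had 0.71. All 3 were lowest with GSK-126 alone. DNMT3A had -0.19 (adjusted p = 0.0011), a call lost without scaling, at -0.05. The Polycomb subunits EED and SUZ12 had 0.53 (adjusted p = 0.00017) and 0.03 (SE 0.07, adjusted p = 0.83).

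The interaction differed between the lines. SNU398 minus HepG2 was called in 9805 genes (50.6%), with 861 higher (4.44%) and 986 lower (5.09%) by 2-fold or more, and SNU398 minus SNU475 in 8331 (43%), 551 higher (2.84%) and 670 lower (3.46%). ATF4 targets had medians of -1.25 in SNU398, -0.96 in HepG2 and 0.14 in SNU475, and the SNU398 value was called lower than that of SNU475 for 38 of 42 members (24.5% of all genes), but lower than that of HepG2 for 22 and higher for 15 (26.1% and 24.5%). Lysosome genes had medians of -0.52 in SNU398, 0.22 in HepG2 and 0.1 in SNU475, with SNU398 called lower than HepG2 for 29 and than SNU475 for 34 of 38. Mitosis genes had medians of 0.98 in SNU398, 0.58 in HepG2 and -0.41 in SNU475, with SNU398 called higher than SNU475 for 44 of 44 (18.5% of all genes). Replication genes ran 0.49 in SNU398, 1.29 in HepG2 and -0.37 in SNU475. Cancer-testis antigens had 0.09 in SNU398, 0.85 in HepG2 and -0.09 in SNU475, with SNU398 called lower than HepG2 for 22 of 30. SNU398 was also lower than HepG2 in hypoxia genes (35 of 35; medians 0.07 and 1.53) and in MHC class I genes (17 of 22; -0.27 and 0.41), where SNU475 had -1.08. GDF15 had an interaction of -3.76 in SNU398, 0.78 in HepG2 and 0.85 in SNU475, and FOS had -3.52 in SNU398, 0.21 in HepG2 and 1.86 in SNU475. ASNS, by contrast, had -2.04 in SNU398 and -2.82 in HepG2, and 0.28 in SNU475. SNU475 was collected on another day, and its difference from SNU398 cannot be told apart from that of the day. In the other lines, genes chosen because GSK-126 alone raised them 2-fold had medians of 1.19 alone and 0.05 with decitabine in HepG2 (247 genes), and 1.32 and 0.17 in SNU475 (221 genes). Over all genes, however, the SD of the GSK-126 effect in HepG2 was 0.44 alone and 0.4 with decitabine, a smaller step than in SNU398 (0.42 and 0.19) or SNU475 (0.38 and 0.2); this difference was not tested.

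**Figure D5:**
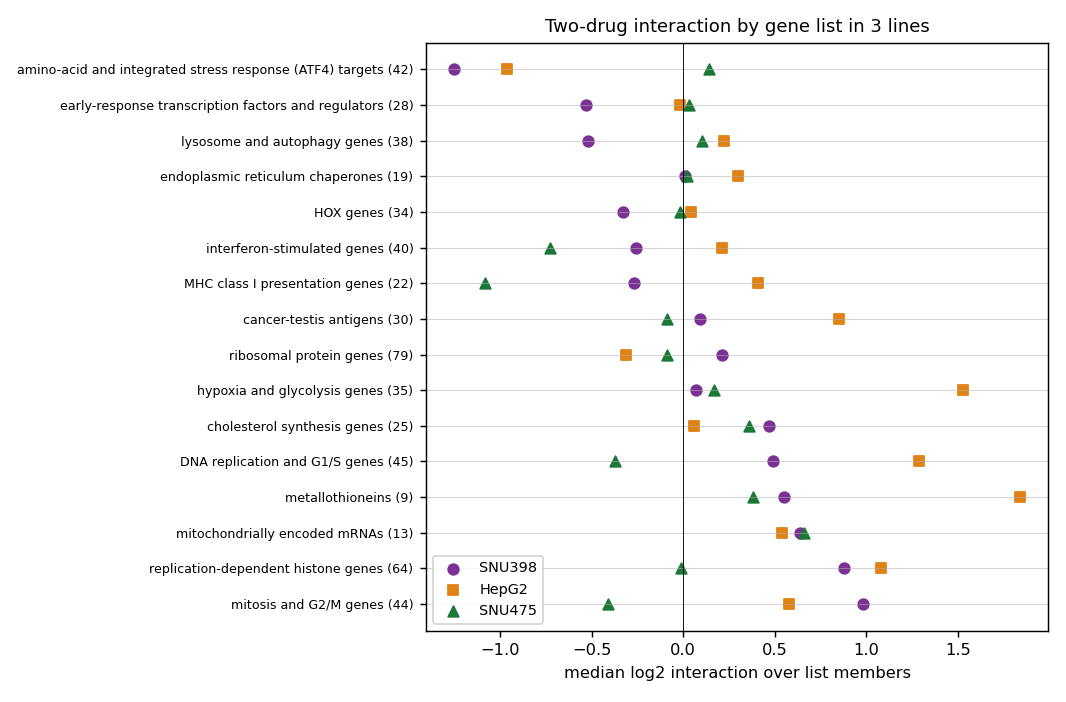
Each symbol is the median log2 interaction of a gene list (members measured in parentheses) in SNU398 (circles), HepG2 (squares) or SNU475 (triangles). ATF4 targets are negative in SNU398 and HepG2, at -1.25 and -0.96, and positive in SNU475, at 0.14; mitosis genes are positive in SNU398 and HepG2 and negative in SNU475.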

How the data were processed

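Stranded libraries of total RNA without ribosomal RNA were read from 1 end over 75 bases, per the labels' protocols. Reads were aligned to hg19 with HISAT2 and assigned with featureCounts, per the submitters' processing notes; the sources used here give no version, annotation release or strand setting, nor how reads with several matches were handled. The deposited values are RPKM per gene, computed by the authors. Reads recovered from the RPKM steps were whole within 0.15 reads for 100% of the values checked in SNU398, and 43.3 to 60.37 (in units of 1e6) lay behind each SNU398 library; for a gene at few reads, counting error adds to the spread.

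From 63677 genes, the 19377 that reached 0.5 RPKM in 2 or more of 24 libraries were tested. Library scale factors were medians of ratios, taken on the 8211 genes that reached 1 RPKM in all libraries; log2 of scaled RPKM plus 0.5 was fitted in limma 3.58.1 (R 4.3.3; trend and robust empirical Bayes) with a mean for each of 12 groups and 12 residual degrees of freedom. Tests were two-sided, with Benjamini-Hochberg adjustment over all genes tested. Genes named are DNMT1, DNMT3A, DNMT3B, UHRF1, EZH2, SUZ12 and EED, the 12 highest and 12 lowest called interactions with a group mean of at least 1 scaled RPKM and replicates within 1 on the log2 scale (clone-based names, small RNAs and pseudogenes left out), up to 4 called genes per list, and the 5 highest and 5 lowest differences between lines; other genes are said to have been chosen after their values were seen, or stand for their promoter. Some genes that this rule names are not reported here. The 37 gene lists (1172 entries) and the tests were chosen with earlier results of these data known. Promoters are RefSeq sequences of GRCh38.p14. Alternatives were the pseudocount, the filter, the scaling, the SNU398 libraries alone, the replicate letter as a term, voom on recovered reads, and each SNU398 library left out. The deposited repeat table was not used here.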

Additional observations from a re-analysis of the deposited data

Results flagged for a closer look

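These are the 5 highest and 5 lowest differences between lines in the interaction, chosen by the rule for named genes among those past limma's test of the difference itself. Against HepG2, the SNU398 interaction was lower by -4.55 on the log2 scale for GDF15, -4.36 for LGALS3, a galectin, -3.98 for MMP1, -3.82 for TIMP1, an inhibitor of metalloproteases, and -3.72 for FOS. LGALS3 and TIMP1 had negative interactions in SNU398 (-1.68 and -1.01) and positive ones in HepG2 (2.68 and 2.81). The SNU398 interaction was higher than that of HepG2 by 2.87 for SLC7A11, the cystine transporter, 2.38 for CENPE, a kinetochore motor, 2.24 for HIST3H2BB, 2.2 for MAT2A, which makes S-adenosylmethionine, and 2.16 for MYO10, an unconventional myosin. SLC7A11 had -0.32 in SNU398 and -3.19 in HepG2, and MAT2A -0.36 in SNU398 and -2.57 in HepG2. With voom the HIST3H2BB difference no longer passed, at 0.99.

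Against SNU475, which was collected on another day, the SNU398 interaction was lower by -5.37 for FOS, -4.61 for GDF15, -4.09 for C15orf65, -3.92 for FOSB and -3.53 for DDIT4. FOSB and DDIT4 had negative interactions in SNU398 (-2.32 and -2.44) and positive ones in SNU475 (1.6 and 1.09). It was higher by 2.97 for ANKRD1, a target of YAP, 2.46 for NPR3, a clearance receptor of natriuretic peptides, 2.36 for CDC20, 2.25 for OLFML1 and 2.22 for SLIT2, a guidance cue. ANKRD1 had 5.12 and 5.38 scaled RPKM with the combination, 2.62 and 2.4 with decitabine, 0.567 and 0.522 with GSK-126 and 0.138 and 0.139 with DPBS in SNU398, an interaction of 0.23 there and -2.75 in SNU475. SLIT2 had 1.58 in SNU398 and -0.65 in SNU475. The part of the collection day in these differences cannot be told apart from that of the line.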

How the results depend on the processing

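Of the 157 named interactions in SNU398, ANKRD1 reversed, to -0.4 with a pseudocount of 0.1 and -0.88 with voom. SUZ12, which was not called, ran from -0.01 to 0.18, and RFX5 from -0.17 to 0. The others kept their direction under the alternatives run, but some calls were lost. The call was lost in 10 alternatives for CEBPA, in 8 for GTSF1 and in 2 for CXCL16. It was lost in 1 each for ANKRD1, DNMT3A, FSTL1, MT-ATP8, PTPRC, RFX5, SLC7A11 and SYCP2. Several list medians moved by over 1.5 times. In lists with many low genes these include interferon-stimulated genes (-0.78 to -0.16), metallothioneins (0.32 to 2.15), cancer-testis antigens (-0.31 to 0.1) and hepatocyte genes (-1.71 to 0.05). Without scaling, medians moved from 0.21 to 0.37 for ribosomal protein genes, -0.33 to -0.19 for HOX genes and -0.22 to -0.07 for Polycomb genes. Those of ATF4 targets (-1.3 to -1.13) and mitosis genes (0.93 to 1.13) did not move that far. Fold-based counts moved most. With a pseudocount of 0.1 there were 344 positive and 733 negative 2-fold interactions, with a pseudocount of 1 255 negative, and with voom 497 positive and 1081 negative. Without scaling, 2922 genes were called negative at any size and 327 were 2-fold positive. For SNU398 minus HepG2, 2-fold higher counts were 532 with a pseudocount of 1 and 479 with the stricter filter, and 2-fold lower counts 1614 with a pseudocount of 0.1, 648 with 1 and 1514 with voom. For SNU398 minus SNU475, 2-fold higher counts were 827 with a pseudocount of 0.1 and 836 with voom, and 2-fold lower counts 1203 with a pseudocount of 0.1, 421 with 1 and 1414 with voom. Pseudocounts and voom differ in how far they draw genes near 0 towards 0; the cause of the other moves was not tested. Leaving out 1 SNU398 library gave 3184 to 3296 positive and 3913 to 4132 negative calls, 182 to 220 and 375 to 415 at 2-fold, 802 to 858 and 961 to 1006 against HepG2, and 533 to 571 and 639 to 710 against SNU475. The replicate letters did not pair the samples (correlations of deviations from -0.12 to 0.24); with the letter as a replicate block there were 3542 positive and 4351 negative calls, 189 and 392 at 2-fold, 857 and 994 against HepG2 and 552 and 677 against SNU475. Depth limits genes under about 0.5 RPKM, whose folds depend on the pseudocount.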
